A study of Homo sapiens with 6 samples.

Results

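The 10 genes described here are subunits, inhibitors and directly induced targets of the transcription factor NF-kB: NFKB1, NFKB2, RELA, RELB, BCL3, NFKBIA, NFKBIZ, TNFAIP3, BIRC3 and ICAM1. They were listed by name, with earlier results of these data known, and were found by symbol from the Ensembl identifiers. All 10 were among the 16574 genes of the files and among the 11223 that passed the filter on low values, which asked for 1 FPKM in no fewer than 3 libraries. FPKM is a count of fragments scaled for transcript length and library size. BIRC3 was under 1 FPKM in 2 of the 3 control libraries and passed through the exposed ones.

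RNA came from Nthy-ori 3-1, an established human thyroid follicular epithelial line, labelled wild type, that carries SV40 large T antigen. One group of 3 libraries was from cells held for 27 days in BDE209 (decabromodiphenyl ether, a brominated flame retardant) at 2.5 µM. The other 3 were from cells that received the solvent dimethyl sulfoxide (DMSO) in equal volume over the same 27 days. The study asks how lasting BDE209 exposure bears on growth of thyroid cells and names the thyroid hormone receptor beta. Whether replicates were grown as separate cultures is not stated. The p-values therefore cover only the spread between these libraries, which may be technical. Values are listed in the order of replicates 1, 2 and 3.

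NF-kB is a family of dimers. In resting cells most dimers are held in the cytoplasm by IkB proteins, and signals from cytokine or stress receptors activate kinases that mark IkB for destruction, which frees the dimers to enter the nucleus. Among the genes they switch on are their own inhibitors, so that NFKBIA and TNFAIP3 transcripts rise soon after NF-kB is active and limit it. In epithelial cells the same factors drive adhesion molecules, chemokines and survival proteins. Movement of subunits into the nucleus is a protein event and was not measured.

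Both replicate 2 libraries stood apart from the other 4 over all genes, so each of the 10 genes is given with and without them. Their summed FPKM was 819086 (DMSO) and 829739 (BDE209), against 567810 to 596725 in the others. Ribosomal protein genes took 29.9% and 30.5% of it, against 17.5% to 20.0%. Depth in fragments is unknown, since FPKM hold no counts. Levels by library are FPKM as deposited, so setting replicate 2 against the other numbers depends on that scaling. The follicular label was checked on 7 markers: 6 of them, thyroglobulin and the TSH receptor included, were under 1 FPKM in every library, and FOXE1 stood at 0.84 to 1.48. Of 6 general epithelial markers, KRT7 and KRT18 stood at 36.2 to 113 FPKM, KRT8 at 5.7 to 9 and EPCAM at 1.06 to 1.21, while KRT19 and CDH1 were at 0.25 or less in every library. The mesenchymal filament gene vimentin (VIM) stood at 6817 to 9207. PTPRC, the pan-leukocyte marker, was at 0.02 FPKM or less and the 4 endothelial markers were under 1 FPKM in every library.

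The promoters are shown because NF-kB dimers bind a short DNA motif and most of the 10 genes are known to be induced through it. RefSeq promoters (GRCh38.p14, 250 bases before to 50 after a start) were found for 9 of the 10 genes, in 14 windows of 300 bases. On either strand, the loose motif GGGNNNNNCC was in 14 of 14 windows but also in 58.7% of all 35116 windows, so it separates little. The kappaB consensus, which lies within it and also asks for a purine at the fourth base and pyrimidines at the seventh and the eighth, was in 9 of the 14 windows, against 11.3% of all windows. By gene, 7 of 9 held it in at least 1 window, against 13.3% of the genes in the table. RELA and ICAM1 held none. The 9 letters GGAAATTCC, a motif chosen after the ICAM1 promoter was seen and one that overlaps the consensus in NFKBIA, NFKB1 and NFKBIZ, were in 0.461% of all windows and in ICAM1. Below are the 250 bases before the start, 5′ to 3′ on the gene's strand, with the consensus in capitals, or in ICAM1 the 9 letters. The first 4 genes were called higher in replicates 1 and 3, and NFKB1, which was not, holds the 10 letters of the NFKBIA match on the opposite strand.
NFKBIA, chr14:35404750-35404999, minus strand: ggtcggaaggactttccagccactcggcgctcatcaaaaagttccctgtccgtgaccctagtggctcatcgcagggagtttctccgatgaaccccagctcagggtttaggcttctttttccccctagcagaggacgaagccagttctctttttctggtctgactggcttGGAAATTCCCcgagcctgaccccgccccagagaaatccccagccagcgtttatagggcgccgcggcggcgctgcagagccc
TNFAIP3, chr6:137867009-137867258, plus strand: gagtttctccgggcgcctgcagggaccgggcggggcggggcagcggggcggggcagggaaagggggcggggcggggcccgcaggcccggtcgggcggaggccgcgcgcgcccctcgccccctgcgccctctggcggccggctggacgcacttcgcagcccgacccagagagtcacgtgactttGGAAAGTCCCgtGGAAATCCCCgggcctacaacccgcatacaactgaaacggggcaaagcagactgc
BIRC3, chr11:102317234-102317483, plus strand: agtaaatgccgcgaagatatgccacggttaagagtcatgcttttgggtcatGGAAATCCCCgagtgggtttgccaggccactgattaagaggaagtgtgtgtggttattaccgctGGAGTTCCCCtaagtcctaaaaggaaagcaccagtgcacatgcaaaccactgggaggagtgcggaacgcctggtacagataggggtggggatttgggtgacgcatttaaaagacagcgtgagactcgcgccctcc
ICAM1, chr19:10270870-10271119, plus strand: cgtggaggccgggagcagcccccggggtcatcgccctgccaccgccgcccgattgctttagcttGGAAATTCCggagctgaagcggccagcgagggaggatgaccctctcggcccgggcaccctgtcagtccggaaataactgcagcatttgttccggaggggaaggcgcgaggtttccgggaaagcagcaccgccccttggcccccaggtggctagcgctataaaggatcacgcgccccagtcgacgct
NFKB1, chr4:102501109-102501358, plus strand: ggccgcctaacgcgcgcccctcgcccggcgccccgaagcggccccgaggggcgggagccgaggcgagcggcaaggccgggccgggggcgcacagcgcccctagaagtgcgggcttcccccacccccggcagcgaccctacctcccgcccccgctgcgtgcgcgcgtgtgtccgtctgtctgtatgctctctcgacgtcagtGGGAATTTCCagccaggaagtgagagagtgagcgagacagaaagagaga
With the start counted as 0, the first base of the match was at -81 in NFKBIA, -67 and -55 in TNFAIP3, -199 and -135 in BIRC3, -186 in ICAM1 and -49 in NFKB1. The match in BCL3 began at 2, after its start. A match is a description of these letters and not a measured site.

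The 10 genes read higher in BDE209 than in DMSO in replicates 1 and 3, as the plot of levels by library shows. In replicate 2 most stayed near their control, with ratios to it from 0.923 (TNFAIP3) to 1.19 (BCL3). In pair 1 (BDE209 replicate 1 against DMSO replicate 1) and in pair 3 all 10 were higher, against 52.8% and 49.6% of all genes tested. In pair 2, 6 of 10 were, against 55.1%. In all 3 pairs 6 of 10 (NFKB1, RELB, NFKBIA, BIRC3, BCL3 and ICAM1) were higher and 0 lower, against 21.9% and 17.3% of all genes. Since all 10 were higher in pairs 1 and 3, these 6 are those of pair 2, near its share of 55.1%. NFKB1 and BIRC3 were higher in pair 2 by only 0.010 and 0.025 log2 units. The median log2(FPKM + 1) difference of the 10 was 0.66, 0.02 and 0.76 in pairs 1, 2 and 3, beside 0.01, 0.02 and -0.00093 over all genes tested. In RNA from a whole culture, more RNA per cell and a larger share of expressing cells cannot be told apart.

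**Figure D1:**
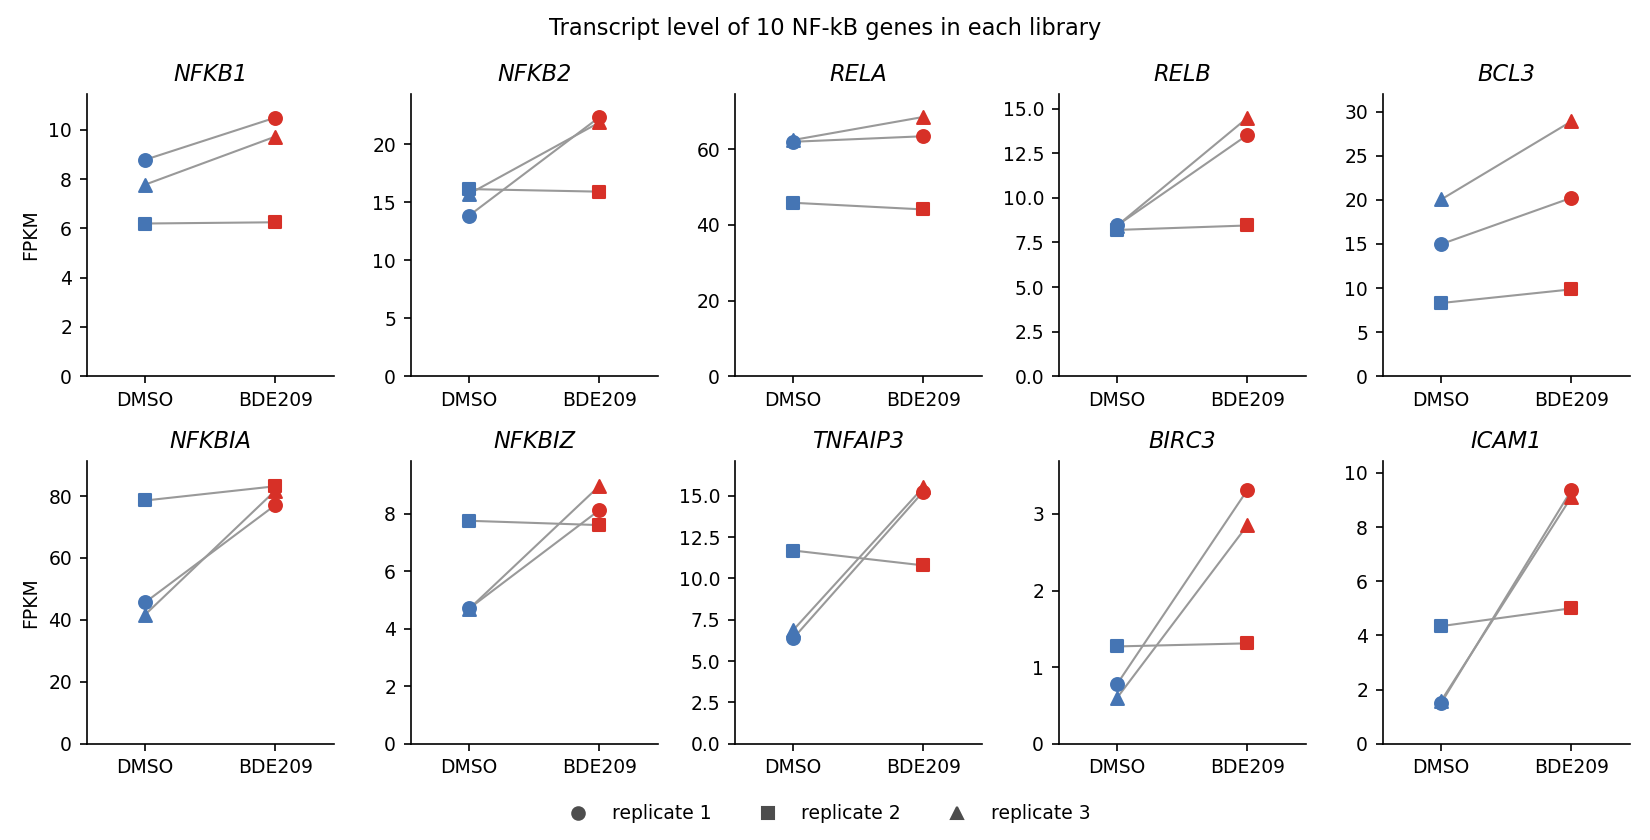
FPKM (vertical axis, from 0, own scale in each panel) of the 10 genes in DMSO (blue) and BDE209 (red), with a line joining libraries of one replicate number and a marker shape for each number. Lines of replicates 1 and 3 climb in every panel, least in RELA (61.98 to 63.44 and 62.45 to 68.54). Those of replicate 2 are mostly nearly flat, as in RELB (8.20 and 8.45), though BCL3 rose there (8.30 to 9.85).

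Tested by limma over all 6 libraries, 0 of the 10 passed an adjusted p of 0.05, as did 0% of the 11223 genes. At an unadjusted p under 0.05 there were 4 of the 10 (ICAM1, BIRC3, TNFAIP3 and NFKBIZ), against 1.57% of all genes. BIRC3 had to differ to pass the filter, and without it there were 3 of 9. The replicate numbers were taken to pair the libraries, although the labels do not say what they share. With the number as a block the count of calls was again 0 of 10 and 0 over all genes, and 7 of 10 had an unadjusted p under 0.05, against 16.5%. In replicates 1 and 3 alone (2 libraries a group) limma called 7 of the 10 higher and 0 lower, against 4.47% of all genes higher, 2.33% lower and 6.81% in either direction. They were ICAM1, TNFAIP3, NFKBIA, NFKBIZ, RELB and NFKB2, which are 6 of the 9 genes other than BIRC3, and BIRC3. With the block, on 1 residual degree of freedom per gene, NFKB1 and BCL3 were called too, which made 9 of 10, but 14.1% of all genes were then called higher, 14% lower and 28% in either direction.

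**Figure D2:**
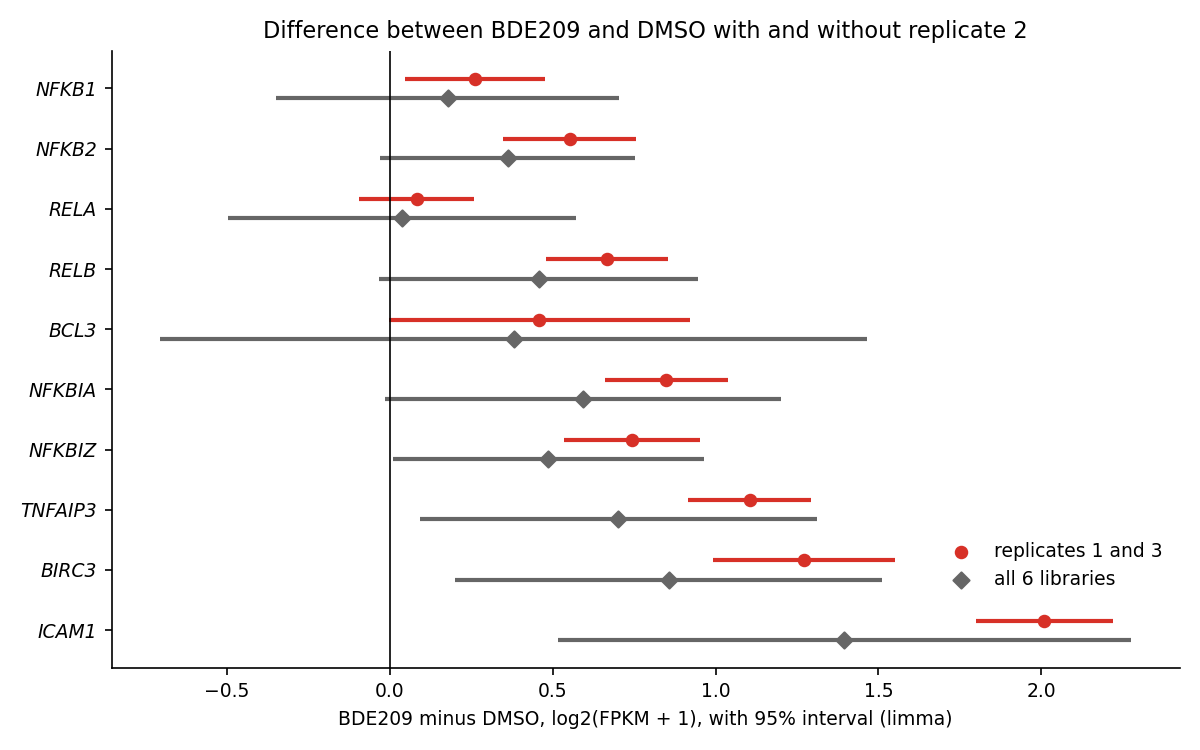
Log2(FPKM + 1) difference (BDE209 less DMSO, horizontal axis) for each gene, with limma's 95% interval, for replicates 1 and 3 (red circles) and for all 6 libraries (grey diamonds). The red interval excludes 0 for 8 genes and is far from it for ICAM1 (1.80 to 2.22), and each grey interval is wider, as in BCL3 (-0.71 to 1.46).

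Among the subunits, NFKB2 and RELB of the non-canonical branch rose in replicates 1 and 3, and RELA and NFKB1 did not pass the test. RELA encodes p65, which carries the transactivation domain of the classical dimer. It read 61.98, 45.85 and 62.45 FPKM across the controls and 63.44, 44.09 and 68.54 across the exposed libraries. The groups overlapped, and both replicate 2 libraries were the low ones. The log2 difference was 0.08 in replicates 1 and 3 (SE 0.0748, limma adjusted p = 0.571) and 0.04 in all 6 libraries (95% interval -0.50 to 0.57).

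NFKB1 encodes p105, the precursor of p50, the usual partner of p65. It read 8.79, 6.20 and 7.78 FPKM across the controls and 10.50, 6.25 and 9.73 across the exposed libraries. In replicates 1 and 3 both exposed libraries were above both controls, and replicate 2 was lowest in each group. The log2 difference there was 0.26 (SE 0.0913, limma adjusted p = 0.152, or 0.0128 with the block).

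NFKB2 encodes p100, which is both an inhibitor and the precursor of p52. It read 13.84, 16.12 and 15.71 FPKM across the controls and 22.31, 15.90 and 21.86 across the exposed libraries. The exposed libraries 1 and 3 stood above every control, while exposed replicate 2 lay among the controls. Its difference in replicates 1 and 3 was 0.55 (SE 0.0862, limma adjusted p = 0.0135). That call was lost without DMSO replicate 1 (0.0568), BDE209 replicate 1 (0.0675) or BDE209 replicate 3 (0.0682), and without the filter (0.0717).

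RELB is the subunit that pairs with p52. In FPKM as deposited its controls were the tightest of the 10, at 8.45, 8.20 and 8.44, and the exposed libraries read 13.52, 8.45 and 14.48. On that scale replicate 2 of BDE209 stood at the control level and the other exposed libraries 1.6 and 1.72 times their own controls. Scaled to an equal sum in each library (TPM), the SE of the difference over all 6 libraries was 0.374, against 0.203 as deposited. The log2 difference in replicates 1 and 3 was 0.67 (SE 0.0792, limma adjusted p = 0.00479).

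Of the IkB family, NFKBIA and NFKBIZ rose in replicates 1 and 3. NFKBIA encodes IkB alpha, the cytoplasmic inhibitor whose resynthesis ends a round of NF-kB activity. Its FPKM were 45.67, 78.58 and 41.71 across the controls and 77.10, 83.18 and 81.78 across the exposed libraries. In FPKM as deposited, all exposed libraries and DMSO replicate 2 lay between 77.1 and 83.2, and the other controls were well under them. That closeness depends on the scaling. Summed FPKM was 819086 in DMSO replicate 2, against 586204 and 567810 in BDE209 replicates 1 and 3. Its log2 difference in replicates 1 and 3 was 0.85 (SE 0.0801, limma adjusted p = 0.00198).

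NFKBIZ encodes IkB zeta, an inducible nuclear member of the family that works as a cofactor at secondary target genes. It read 4.70, 7.75 and 4.69 FPKM across the controls and 8.12, 7.60 and 8.96 across the exposed libraries. In FPKM as deposited, DMSO replicate 2 again lay with the exposed libraries, above BDE209 replicate 2, and the same limit of scaling applies. The difference in replicates 1 and 3 was 0.74 (SE 0.0882, limma adjusted p = 0.00479).

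BCL3, a nuclear IkB protein that acts with p50 or p52 homodimers, was lowest in replicate 2 of each group. It read 14.98, 8.30 and 20.05 FPKM across the controls and 20.23, 9.85 and 28.91 across the exposed libraries. Each exposed library was above its own control, by ratios of 1.35, 1.19 and 1.44, but the groups overlapped widely. The log2 difference in replicates 1 and 3 was 0.46 (SE 0.191, limma adjusted p = 0.232), and with the block the adjusted p was 3.73e-05. Single libraries moved that difference. Leaving out BDE209 replicate 3 or DMSO replicate 1 gave 0.21 and 0.26, and leaving out DMSO replicate 3 or BDE209 replicate 1 gave 0.66 and 0.71.

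The feedback and effector targets had the 3 largest differences. TNFAIP3 encodes A20, a ubiquitin-editing enzyme that shuts down signalling from the TNF and interleukin-1 receptors. It read 6.37, 11.69 and 6.87 FPKM across the controls and 15.25, 10.79 and 15.51 across the exposed libraries. Replicate 2 of both groups lay between the low controls and the high exposed libraries, with BDE209 slightly the lower. The TNFAIP3 difference in replicates 1 and 3 was 1.10 (SE 0.0801, limma adjusted p = 0.000805).

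BIRC3 encodes cIAP2, a ubiquitin ligase that promotes survival signalling from the TNF receptor. It was the least abundant of the 10, at 0.78, 1.27 and 0.60 FPKM across the controls and 3.31, 1.31 and 2.85 across the exposed libraries. The groups did not overlap, although BDE209 and DMSO replicate 2 were only 0.04 FPKM apart. Of the 10 genes, 2 had groups apart in this way, BIRC3 and ICAM1 (1 of 9 without BIRC3), against 3.22% of all genes tested that were apart and higher and 2% that were apart and lower. The BIRC3 difference in replicates 1 and 3 was 1.27 (SE 0.118). Since it passed the filter through the exposed libraries, its limma adjusted p of 0.00194 is replaced by that without the filter, 0.0328. At such levels the added 1 FPKM understates it, the ratio within a pair being 4.24 and 4.75.

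ICAM1, the adhesion molecule to which leukocyte integrins bind, had the largest difference. It read 1.5, 4.34 and 1.58 FPKM across the controls and 9.35, 5 and 9.10 across the exposed libraries. The lowest exposed library, replicate 2, was above the highest control, also replicate 2. The ratio to the control of the same number was 6.23, 1.15 and 5.76. In replicates 1 and 3 the log2 difference was 2.01 (SE 0.0894, limma adjusted p = 0.000144), and over all 6 libraries it was 1.40 (SE 0.365, unadjusted p = 0.00782, adjusted p = 1.00).

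Whether the effect in replicate 2 differed from that in replicates 1 and 3 was tested as an interaction in limma, with 1 library a group in replicate 2 and the spread taken from the others. It was smaller in replicate 2 for ICAM1, by 1.84 log2 units (adjusted p = 0.00635), and for TNFAIP3, by 1.21 (adjusted p = 0.0185). These 2 of 10 compare with 0.463% of all genes called in that direction, 0.151% in the other and 0.615% in either. Without the filter on low values neither was called. With the block, 7 of 10 were called as smaller, namely the 7 called in replicates 1 and 3, BIRC3 included, against 5% of all genes lower, 5.27% higher and 10.3% in either direction. For RELA, NFKB1 and BCL3 the difference of effects was -0.14, -0.25 and -0.24, and none was called in either fit.

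The control level in replicate 2 differed between the genes. In DMSO replicate 2 the level relative to the mean of DMSO replicates 1 and 3 was 1.80 for NFKBIA, 1.65 for NFKBIZ, 1.77 for TNFAIP3, 1.84 for BIRC3 and 2.82 for ICAM1. For the subunits it was 1.09 (NFKB2), 0.971 (RELB), 0.748 (NFKB1) and 0.737 (RELA), and for BCL3 0.474. On the log2 scale, NFKBIA, NFKBIZ, TNFAIP3 and ICAM1 in DMSO replicate 2 were nearer to BDE209 replicates 1 and 3 than to the other controls. The other 6 were nearer to the controls. In all, 6 of 10 lay above DMSO replicates 1 and 3, where 38.5% of all genes did, and 4 of 10 lay below, where 52.7% did. These counts were given no test. They and the ratios are of FPKM as deposited. On that scale the median of DMSO replicate 2 against the other controls was -0.09 log2 units over all genes. Its summed FPKM was 819086, against 596725 and 580098 in DMSO replicates 1 and 3. Scaling to that sum would lower it against them in every gene, so which group it is nearer to may depend on the scaling. That scaling was not applied to these comparisons.

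Over all genes, DMSO replicate 2 differed from the other controls by length of transcript. Split into 4 length classes of like size, the shortest had a median of 0.31 log2 units and the longest -0.37. NFKBIZ, TNFAIP3, BIRC3 and NFKB1 belong to the third class, whose median was -0.19, and stood at 0.62, 0.74, 0.43 and -0.36. ICAM1, NFKB2 and RELA, of the second class (-0.02), stood at 1.07, 0.12 and -0.43. NFKBIA, RELB and BCL3 are in the shortest class and stood at 0.83, -0.04 and -0.98. What the replicate numbers share is not stated, and the treatment cannot be told apart from any condition that differed between groups in replicates 1 and 3 but not in replicate 2.

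The ratio of 2 transcripts within a library leaves out the scaling of that library, but not the shift by transcript length in replicate 2. NFKBIA and RELB are in the shortest length class, RELA and NFKB2 in the second and NFKB1 in the third. NFKBIA to RELA, the inhibitor to the subunit that it holds, was 0.737, 1.71 and 0.668 in DMSO and 1.22, 1.89 and 1.19 in BDE209. The ratio was highest in the replicate 2 libraries whatever the treatment, and was above its own control in all 3 exposed libraries. RELB to RELA was 0.136, 0.179 and 0.135 in DMSO and 0.213, 0.192 and 0.211 in BDE209. The groups did not overlap, but the nearest values were the 0.179 and 0.192 of replicate 2. RELB alone met at 8.45 FPKM in DMSO replicate 1 and BDE209 replicate 2. How many ratios between other genes part the groups in this way was not counted. NFKB2 to NFKB1 ranged from 1.57 to 2.60 in DMSO and from 2.12 to 2.54 in BDE209, and overlapped.

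**Figure D3:**
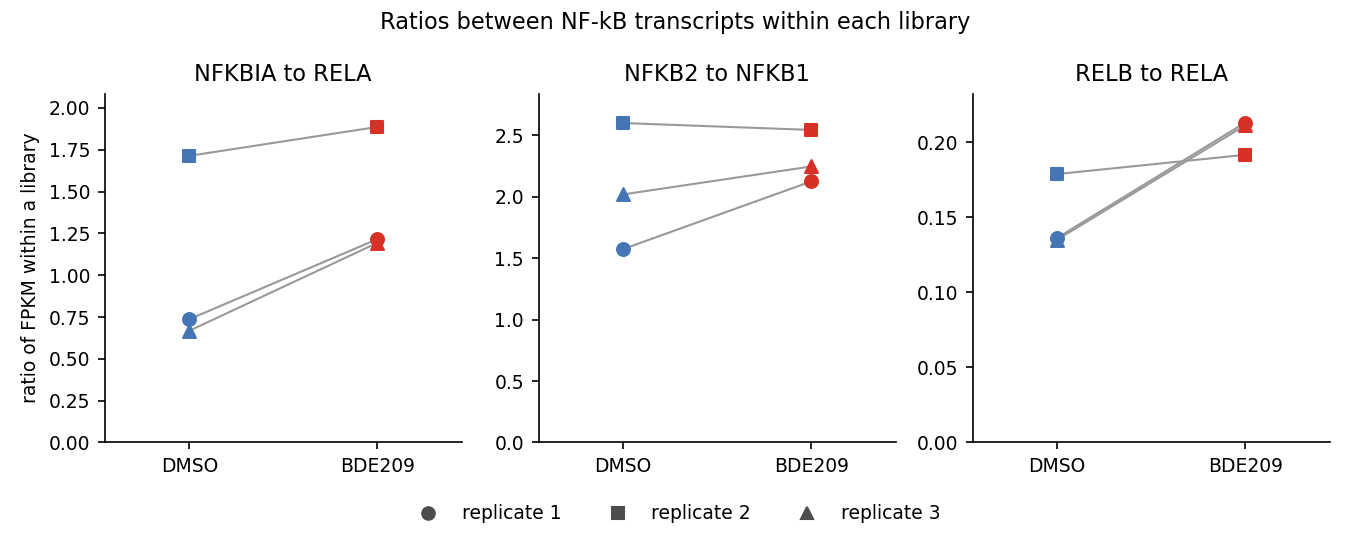
Ratio of FPKM (vertical axis, from 0) between pairs of NF-kB transcripts within each library, in DMSO (blue) and BDE209 (red), with lines joining one replicate number. NFKBIA to RELA and RELB to RELA climb in replicates 1 and 3 (0.737 to 1.22 for NFKBIA in replicate 1), and replicate 2 starts higher, at 1.71 for NFKBIA and 0.179 for RELB.

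Since FPKM are scaled to length, levels can be ordered between genes, but replicate 2 held a further shift by transcript length. RELA stood above NFKBIA in DMSO replicates 1 and 3, at 61.98 and 62.45 FPKM against 45.67 and 41.71. It stood below NFKBIA in DMSO replicate 2, at 45.85 against 78.58. In DMSO the order by mean was RELA at 56.8 ± 9.45 FPKM (SD, n = 3) and NFKBIA at 55.3 ± 20.2, then NFKB2, BCL3, RELB, TNFAIP3, NFKB1 and NFKBIZ from 15.2 ± 1.22 down to 5.71 ± 1.76, then ICAM1 at 2.47 ± 1.62 and BIRC3 at 0.883 ± 0.347. Only the steps from NFKBIA to NFKB2, NFKBIZ to ICAM1 and ICAM1 to BIRC3 were between genes whose libraries did not overlap. In BDE209, NFKBIA at 80.7 ± 3.18 FPKM stood above RELA at 58.7 ± 12.9 in every library and without overlap. ICAM1, at 7.82 ± 2.44, there overlapped NFKBIZ, at 8.23 ± 0.686.

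The rest of the pathway was described in replicates 1 and 3 from lists of its other genes, and most calls were among targets, as the plot of pathway lists shows. There, limma called 0 of the 4 other subunits and IkB proteins and 0 of 5 tested genes of the non-canonical branch. Of 22 receptors, adaptors and kinases it called 0 higher and 1 lower. Of 11 other negative regulators, 2 were higher and 0 lower. Of 13 further targets that are not cytokines, 7 were higher and 1 lower, and of 11 cytokine and chemokine targets 9 were higher and 0 lower. These counts stand beside 4.47% of all genes higher and 2.33% lower. Of the 9 cytokines, CSF2 and CXCL2 passed the filter only through the exposed libraries, and without them 7 of 9 were higher. Over all 6 libraries limma called 0 genes of any of these lists, and every tested gene in them had an adjusted p of 1.00. The median differences of these 6 lists were 0.03, -0.10, 0.01, 0.07, 0.42 and 1.78, beside 0.005 over all genes and 0.70 for the 10 genes. With the block, 1 of 4, 1 of 5, 4 of 22, 2 of 11, 8 of 13 and 10 of 11 were called higher. Lower were 0, 1, 1, 0, 1 and 0, beside 14.1% of all genes higher and 14% lower. In pair 2, 1 of 4, 2 of 5, 12 of 22, 7 of 11, 7 of 13 and 2 of 11 were higher, against 55.1% of all genes. The median difference of the cytokine and chemokine targets in that pair was -0.15, beside 0.02 over all genes.

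**Figure D4:**
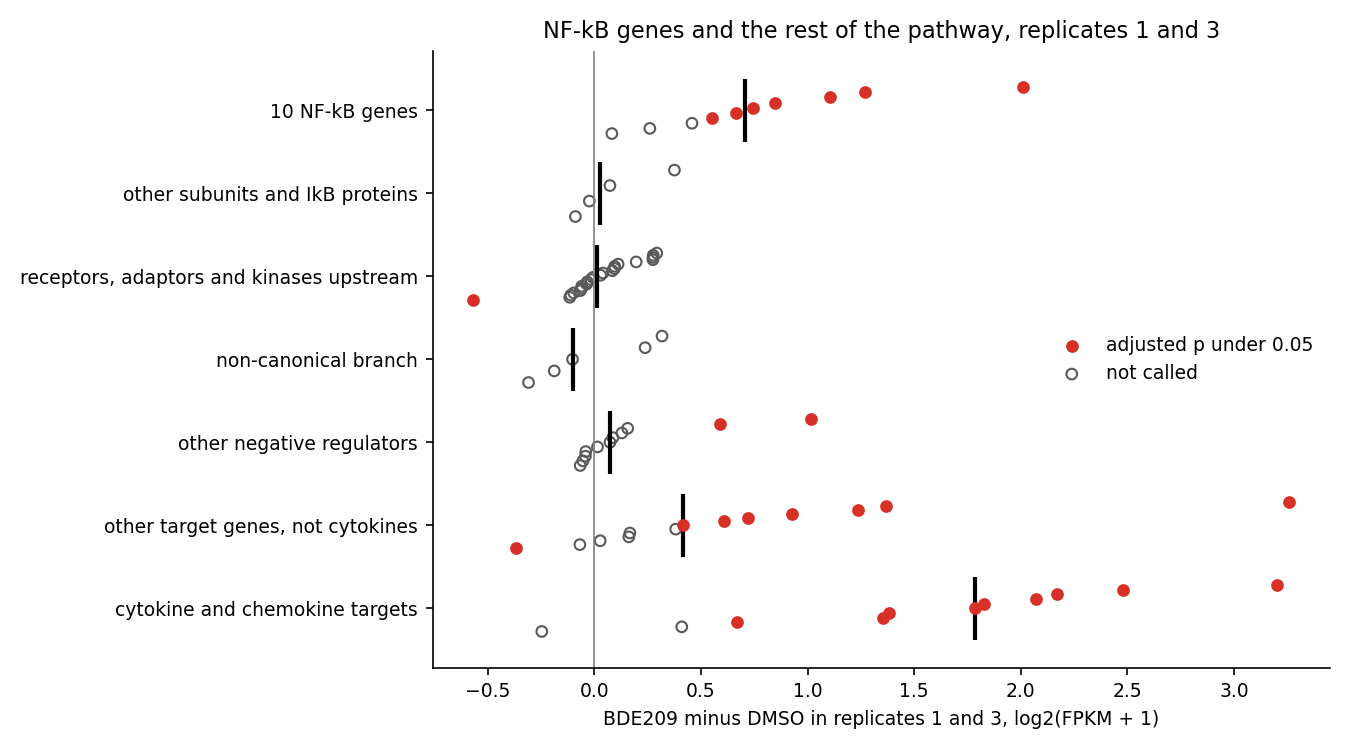
Log2(FPKM + 1) difference (BDE209 less DMSO, horizontal axis) in replicates 1 and 3 for each tested gene of the 10 NF-kB genes and of 6 lists of the pathway; filled red points passed an adjusted p of 0.05 in limma, open points did not, and a bar marks the median. The lists of signalling genes centre near 0 (medians from -0.10 to 0.07), and the cytokine and chemokine targets at 1.78.

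The upstream gene that was called was IRAK1, a kinase that relays interleukin-1 receptor signals. It read lower, at 101.09, 87.21 and 113.82 FPKM across the controls and 68.35, 81.78 and 76.11 across the exposed libraries, without overlap between groups. Its log2 difference in replicates 1 and 3 was -0.57 (SE 0.0910, limma adjusted p = 0.015). IL1R1, the receptor itself, read 9.05, 9.43 and 9.43 FPKM across the controls and 11.21, 10.42 and 11.89 across the exposed libraries, also without overlap. It was not called in replicates 1 and 3 (limma adjusted p = 0.082, or 0.00485 with the block). Of the 22 upstream genes tested, 2 had groups apart and higher and 2 apart and lower, against 3.22% and 2% of all genes. These separations are in FPKM as deposited and were not counted after scaling.

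Of the other subunit and IkB genes, NFKBIB and NFKBID had the smallest p over 6 libraries. NFKBIB, IkB beta, which is not known as a feedback target of the same kind, read 34.88, 50.84 and 36.62 FPKM across the controls and 30.58, 45.21 and 36.82 across the exposed libraries. NFKBID, a nuclear IkB protein, read 3.19, 5.19 and 3.17 in DMSO and 4.43, 4.8 and 4.42 in BDE209. Replicate 2 was the highest library of each group, and its adjusted p in replicates 1 and 3 was 0.0545 (0.00475 with the block). Of the non-canonical branch, MAP3K14 (the kinase NIK) and TNFRSF12A (the TWEAK receptor) differed there by -0.19 and -0.31, and neither was called (adjusted p = 0.302 and 0.261; with the block TNFRSF12A was, at 1.67e-05).

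TNIP1, a ubiquitin-binding partner of A20, also rose in replicates 1 and 3. It read 61.96, 64.91 and 57.90 FPKM across the controls and 123.44, 60.57 and 120.68 across the exposed libraries, a log2 difference of 1.01 in replicates 1 and 3 (SE 0.0731, limma adjusted p = 0.000793). In contrast to TNFAIP3, its DMSO replicate 2 lay with the other controls, at 1.08 times their mean. ZC3H12A, a nuclease that degrades inflammatory transcripts, differed by 0.59 in replicates 1 and 3 (adjusted p = 0.0155), and its DMSO replicate 2 was 1.69 times the other controls.

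Among further targets, C3, the central complement component, read 1.87, 7.98 and 1.67 FPKM across the controls and 24.88, 7.12 and 26.08 across the exposed libraries, a difference of 3.26 in replicates 1 and 3 (SE 0.0856, limma adjusted p = 2.1e-05). PTGS2, the inducible cyclooxygenase, PTX3, a secreted pattern receptor, and IRF1, a transcription factor also induced by interferon, differed there by 1.37, 1.24 and 0.93 (adjusted p = 0.000381, 0.000578 and 0.0016). IRF1 was lower in DMSO replicate 2, at 0.472 times the other controls, where PTGS2 was at 3.84 times them. Of the cytokines, IL1B, IL6 and CXCL8 differed by 3.20, 2.17 and 2.07 (adjusted p from 3.2e-05 to 0.00022) and their DMSO replicate 2 read 25.31, 7.70 and 639.87 FPKM. CSF2, which passed the filter only through the exposed libraries, read 0, 4.85 and 0.17 FPKM across the controls and 5.38, 3.45 and 4.71 across the exposed libraries. The effect was smaller in replicate 2 by the interaction test for IL1B, IL6 and CXCL8, for C3, PTGS2, PTX3 and TNIP1, and not for IRF1 or ZC3H12A (adjusted p = 0.313 and 0.168; 0.0405 and 0.00395 with the block).

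The genes outside these lists whose 6 values were most like the mean scaled profile of the 10 were C1QTNF1, ZNF395, NPAS2, STC2, C1S and PLA2G4C, with Pearson r from 0.990 to 0.994 over 6 libraries that share replicate numbers. STC2, a secreted glycoprotein, read 121.71, 142.87 and 123.26 FPKM across the controls and 215.10, 145.30 and 214.89 across the exposed libraries. C1S, a protease of the classical complement pathway, read 34.07, 35.50 and 32.82 in DMSO and 81.94, 38.94 and 77.65 in BDE209. In both, as in RELB, replicate 2 of the exposed group stood near the controls. This is a description of 6 points, chosen as the highest of 11223 genes.

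Markers of other cell types gave these values beside the change in replicates 1 and 3. The summed level of the 4 immune markers found of 8 ranged over 58.9 to 74.4 FPKM for controls and 49.0 to 68.3 for exposed libraries, nearly all of it CD68, which many cell types express. That of the 4 endothelial markers was 0.41 to 0.82 in DMSO and 0.63 to 0.78 in BDE209. The 6 mesenchymal markers summed to 9935 to 14592 and 9151 to 12235 FPKM, and the 6 epithelial ones to 150.5 to 178.7 and 118.9 to 155.0. Fibronectin (FN1) and PDGFRB of the mesenchymal list were called lower by limma in replicates 1 and 3, by -0.53 and -0.42 log2 units (adjusted p = 0.00846 and 0.0332). With the block, 4 of 6 mesenchymal markers (VIM and COL1A2 besides), 2 of 4 tested epithelial ones (KRT7 and KRT18) and CD68, the 1 immune marker tested, were called lower, and 0 markers higher. Over all genes, 2.33% were called lower in replicates 1 and 3 without the block, and 14% lower and 14.1% higher with it. The part of these markers in the NF-kB result was not tested.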

How the data were processed

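For each of 6 libraries the authors deposited FPKM, rounded to 2 decimals and keyed by human Ensembl identifier, per the file headers. Bowtie 0.12.2, Bowtie2 and RSEM are named in the submitters' processing notes, together with the mouse builds mm8 and mm10. Not given in the sources used here are the human build, the strand setting and how reads shared between genes were handled. Libraries were joined by identifier, 40 rows of 20 identifiers listed more than once were left out, and 16535 of 16574 genes matched a symbol.

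Limma 3.58.1 (R 4.3.3) was fitted to log2(FPKM + 1) of 11223 genes, using a trended and robust prior and no block, with Benjamini-Hochberg adjustment. It was first run on simulated data with independent noise. Those data held no replicate 2 shift and no pairing, so the run does not bear on either. Differences are BDE209 minus DMSO and are understated at low levels. Same-numbered libraries deviated together from their group means (r = 0.738, 0.875 and 0.824 across genes for numbers 1, 2 and 3). Libraries numbered 1 and 3 in opposite groups did so too (r = 0.644 and 0.646). These values thus set replicate 2 apart more clearly than they tell 1 from 3. The numbers were taken to pair the libraries, and the blocked values rest on that assumption. Blocked values are given where they change a call among the results of the text. Transcript length was the longest in GENCODE v29. Alternatives were the pseudocount, the filter, the trend, TPM or median scaling, the block and each library left out.

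The members, lists and tests were chosen with earlier results of these data known. Besides the 10 genes, up to 4 called genes of each list were named, those with the largest difference in replicates 1 and 3. Where fewer than 2 were called, the 2 with the smallest p over 6 libraries were named. The 6 genes with the most similar profile were also named. Ratios, the single epithelial, mesenchymal and immune markers, CXCL2, and the genes of the closing part, were named after their values were seen. Of the lists, 1 upstream gene, 1 target and 4 immune markers were not analysed here. The protein comparison that was planned was not run.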

Additional observations from a re-analysis of the deposited data

How the results depend on the processing

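Over all 6 libraries, 0 of the 10 genes were called under every alternative run, and the count over all genes was 0 to 1 when each library was left out (1 without BDE209 replicate 2). In replicates 1 and 3, 6 or 7 of the 10 were called under all alternatives but the replicate block (9). Over all genes the count was 764, and 199 without the filter, 3146 with the replicate block and 250 to 435 when 1 library was left out. The interaction called 69 genes and 2 of the 10, 2 and 0 without the filter, and 1153 and 7 with the replicate block. With TPM scaling it also called BIRC3 (adjusted p = 0.0458). RELA over all 6 libraries, not called in any fit, ranged from -0.11 (without DMSO replicate 2) through -0.03 (without BDE209 replicate 1) and -0.09 (without BDE209 replicate 3) to 0.23 (without BDE209 replicate 2). The cause of these changes was not tested, except that leaving a library out leaves fewer samples. Among the 10 genes the block changed no call other than those given in the text. Of the 10 genes, 6 were higher in all 3 pairs, and 5 with TPM scaling or median centring. With a filter at 5 FPKM, which BIRC3 did not pass, it was also 5. The median difference of the 10 over all 6 libraries was 0.47. It ran from 0.38 (without BDE209 replicate 3) to 0.63 (without BDE209 replicate 2). In replicates 1 and 3 it was 0.70, and ran from 0.65 (without BDE209 replicate 3) to 0.78 (pseudocount 0.1). Medians moved by no more than the SD of the 3 pair medians, a wide yardstick since pair 2 lay far from the others. The order of levels was the same with TPM scaling. Depth is unknown, so no detection limit can be given for the low values of BIRC3 and ICAM1.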

Other observations

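Some genes of the pathway lists did not follow the 10. CCL2, the monocyte chemokine, read 8.13, 204.00 and 9.84 FPKM across DMSO replicates 1, 2 and 3 and 8.90, 137.47 and 6.11 across the exposed libraries, so that replicate 2 was the high one in both groups. GADD45B, a stress gene often induced by NF-kB, was lower in BDE209, reading 41.57, 56.68 and 39.20 FPKM across the controls and 30.34, 48.35 and 31.91 across the exposed libraries, with an adjusted p of 0.0359 in replicates 1 and 3 and of 1.00 over all 6 libraries by limma. VCAM1 and SELE, adhesion molecules of endothelium, were listed at 0.06 FPKM or less in every library, where ICAM1 reached 9.35. TNF was listed at 0.05 FPKM or less in every library.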
